A study of Homo sapiens with 24 samples.

Results

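The genes described here encode secreted and stored proteins of neutrophil precursors and monocytes, namely MPO, ELANE, AZU1, PRTN3, CTSG, LYZ, CFD, SRGN, S100A8 and S100A9. They were taken by gene symbol from the deposited table, 10 of its 38735 named genes, and all 10 were found. The 24 poly-A RNA libraries came from THP-1, an established human monocytic leukaemia line, which had been differentiated with the phorbol ester PMA (100 nM, 24 h) and therefore carried that treatment in every group. There were 4 groups of 6 libraries, with the replicate letters A to F in each. The Control group then had medium alone. The DCVC group was exposed for 24 h to S-(1,2-dichlorovinyl)-L-cysteine at 5 µM, a conjugate that the body forms from the solvent trichloroethylene. The LPS group was exposed for 4 h to 100 ng/mL lipopolysaccharide, which is shed by gram-negative bacteria and sensed through TLR4. The DCVC_LPS group had both exposures in turn, first the 24 h of DCVC and then, in fresh medium, the 4 h of LPS. The title of the series asks whether DCVC dampens the inflammatory response of macrophage-like cells to LPS.

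Neutrophil precursors and young monocytes make a set of cationic proteins that are packed into primary (azurophil) granules. Neutrophil elastase (ELANE), proteinase 3 (PRTN3) and cathepsin G (CTSG) are serine proteases, azurocidin (AZU1) is their antimicrobial relative without protease activity, and myeloperoxidase (MPO) makes hypochlorous acid. Lysozyme (LYZ) cleaves bacterial cell walls, factor D (CFD) is the serine protease that starts the amplification step of the alternative complement pathway, and serglycin (SRGN) is the proteoglycan core that holds granule proteins. S100A8 and S100A9 form calprotectin, a calcium- and zinc-binding complex of monocytes and neutrophils. Transcription of the granule proteases is known to be highest in precursors and to be driven by PU.1, C/EBP, MYB and RUNX factors.

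The AZU1, PRTN3, ELANE and CFD genes lie next to each other on the plus strand of chromosome 19 at chr19:825097-832018, chr19:840960-848175, chr19:851014-856247 and chr19:859643-863630 (GENCODE 29, GRCh38). The row of 4 genes spans 38534 bases. CTSG lies on chromosome 14 (chr14:24573522-24576260, minus strand) and MPO on chromosome 17 (chr17:58269856-58280935, minus strand). LYZ lies at chr12:69348341-69354234 and SRGN at chr10:69088106-69104811, both on the plus strand. S100A9 (chr1:153357854-153361027, plus strand) and S100A8 (chr1:153390032-153391188, minus strand) are 29004 bases apart. All 10 are annotated as protein-coding, and the values cover the whole gene.

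Promoter windows, from 250 bases before to 50 bases after the RefSeq start (GRCh38.p14), were found for 6 of the 10 genes. The windows of AZU1, PRTN3 and CTSG, whose transcripts rose with DCVC, are shown beside that of CFD, which lies in the same row of genes and moved least among the 4. Capitals mark the C/EBP letters TTNNGNAA and the PU.1 core GAGGAA, searched on both strands.
AZU1, chr19:827587-827886, plus strand: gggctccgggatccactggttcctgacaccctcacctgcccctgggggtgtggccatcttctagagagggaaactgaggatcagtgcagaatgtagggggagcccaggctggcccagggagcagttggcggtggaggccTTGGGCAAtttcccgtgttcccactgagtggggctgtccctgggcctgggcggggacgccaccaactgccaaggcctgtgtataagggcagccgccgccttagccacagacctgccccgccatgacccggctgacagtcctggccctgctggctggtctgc
PRTN3, chr19:840749-841048, plus strand: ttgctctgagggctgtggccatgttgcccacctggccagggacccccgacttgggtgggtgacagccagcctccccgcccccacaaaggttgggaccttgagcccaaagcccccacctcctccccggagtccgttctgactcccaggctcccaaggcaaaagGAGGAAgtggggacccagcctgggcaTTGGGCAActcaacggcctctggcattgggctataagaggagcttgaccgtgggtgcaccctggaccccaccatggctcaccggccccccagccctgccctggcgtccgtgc
CTSG, chr14:24576201-24576500, minus strand: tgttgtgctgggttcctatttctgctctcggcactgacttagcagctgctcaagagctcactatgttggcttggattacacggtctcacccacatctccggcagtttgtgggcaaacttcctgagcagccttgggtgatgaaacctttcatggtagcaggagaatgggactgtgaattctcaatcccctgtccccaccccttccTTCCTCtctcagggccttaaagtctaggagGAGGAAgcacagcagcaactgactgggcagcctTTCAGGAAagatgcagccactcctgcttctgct
CFD, chr19:859414-859713, plus strand: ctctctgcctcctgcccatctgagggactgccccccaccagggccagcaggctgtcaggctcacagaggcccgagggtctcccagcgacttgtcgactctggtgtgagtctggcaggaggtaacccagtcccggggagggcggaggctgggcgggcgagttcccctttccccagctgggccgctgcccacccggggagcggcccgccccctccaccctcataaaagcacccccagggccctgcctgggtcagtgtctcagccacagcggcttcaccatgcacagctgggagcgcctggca
AZU1 and PRTN3 both hold the C/EBP match TTGGGCAA, which begins 111 bases before the start in AZU1 and 62 bases before it in PRTN3. The PRTN3 window also holds the PU.1 core, 88 bases before the start. The CTSG window holds that core on both strands, in capitals as TTCCTC and GAGGAA, and a C/EBP match after its start. The CFD window holds neither. Windows that are not shown hold both motifs as well. They occur in the window of S100A9, which fell with DCVC, and in windows of S100A8, which did not pass. Of 35116 windows of the same length, 27.9% hold the PU.1 core and 36.8% the C/EBP letters, so such matches are common. The NRF2 element letters TGACNNNGC occur in the AZU1 window and at 2 places in that of CTSG, against 13.3% of all windows. The MYB letters AACNG occur in 77.2% of windows, the RUNX letters TGNGGT in 43.2%, the AP-1 letters TGANTCA in 7.7% and the NF-kB motif in 5.9%. Of the 4 windows shown, all but that of CFD hold the MYB letters, that of PRTN3 holds the RUNX letters, and none holds the AP-1 or NF-kB letters. A match is a description of the letters and was not tested for binding.

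The values are normalized counts, that is, reads divided by a size factor per library. Each library held between 18478618 and 30107819 recovered reads of named genes. The normalized totals differed between groups, with means from 17774466 in DCVC to 29427331 in LPS. Each change is therefore given on the deposited scale and, where the call of a tested member differs, also after every library was scaled to an equal total. Equal totals move the median log2 change of all tested genes from -0.03 to 0.22 in DCVC minus Control, from -0.07 to 0.36 in DCVC_LPS minus LPS, from -0.03 to -0.50 in LPS minus Control and from -0.03 to -0.33 in DCVC_LPS minus DCVC. Of 15 macrophage markers, 14 had a mean of at least 10, and their summed level, in CPM (reads scaled to a common library total), spanned 4885 to 5899 in Control and 3928 to 4366 in DCVC. With LPS it spanned 1847 to 2135, and 2382 to 2687 when DCVC preceded LPS. The markers did not move alike. MSR1 and CSF1R, the highest in Control (means of 33422 and 32211 normalized counts), had means of 12584.5 and 9693 in LPS. ITGAX went from 9363 to 8557 and APOE from 5635.5 to 5509. CD68 (5.28 to 11.1) and MARCO (4.56 to 32.2), both with few counts and means under 10 in Control, were higher in LPS. No test is given here for these marker changes. Of 10 mature-neutrophil markers, CXCR1, FCGR3B, CEACAM8, LTF, LCN2 and CD177 had means over the 24 libraries under 1, while 3 reached a mean of 10. Of these, CSF3R had group means of 146 to 155 normalized counts, MMP8 of 313 in Control, 401 in LPS, 14.4 in DCVC and 27.4 in DCVC_LPS, and CXCR2 of 92.1 and 95.3 in the Control and DCVC groups, against 2.68 with LPS alone and 9.77 with both. The part of these markers in the results below was not tested.

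Per kilobase of annotated exon, the levels ran over several orders of magnitude. In Control, CFD (4284 ± 641 normalized counts per kb, mean ± SD, n = 6), SRGN (3931 ± 565) and AZU1 (2529 ± 634) were highest, and neighbours in that order had overlapping libraries. LYZ (825 ± 288), S100A9 (780 ± 754) and ELANE (749 ± 252) formed a middle range, and each neighbour in that order overlapped the next. PRTN3 followed at 515 ± 128 and overlapped ELANE. CTSG (128 ± 45.2), S100A8 (13.8 ± 12.3) and MPO (0.16 ± 0.31) each lay below the gene above them without overlap. In DCVC the order changed at the top, with SRGN (8626 ± 964) above AZU1 (4864 ± 896) and CFD (4715 ± 859). SRGN led more clearly in LPS, at 20107 ± 2212 per kb against 4729 ± 282 for CFD.

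**Figure D1:**
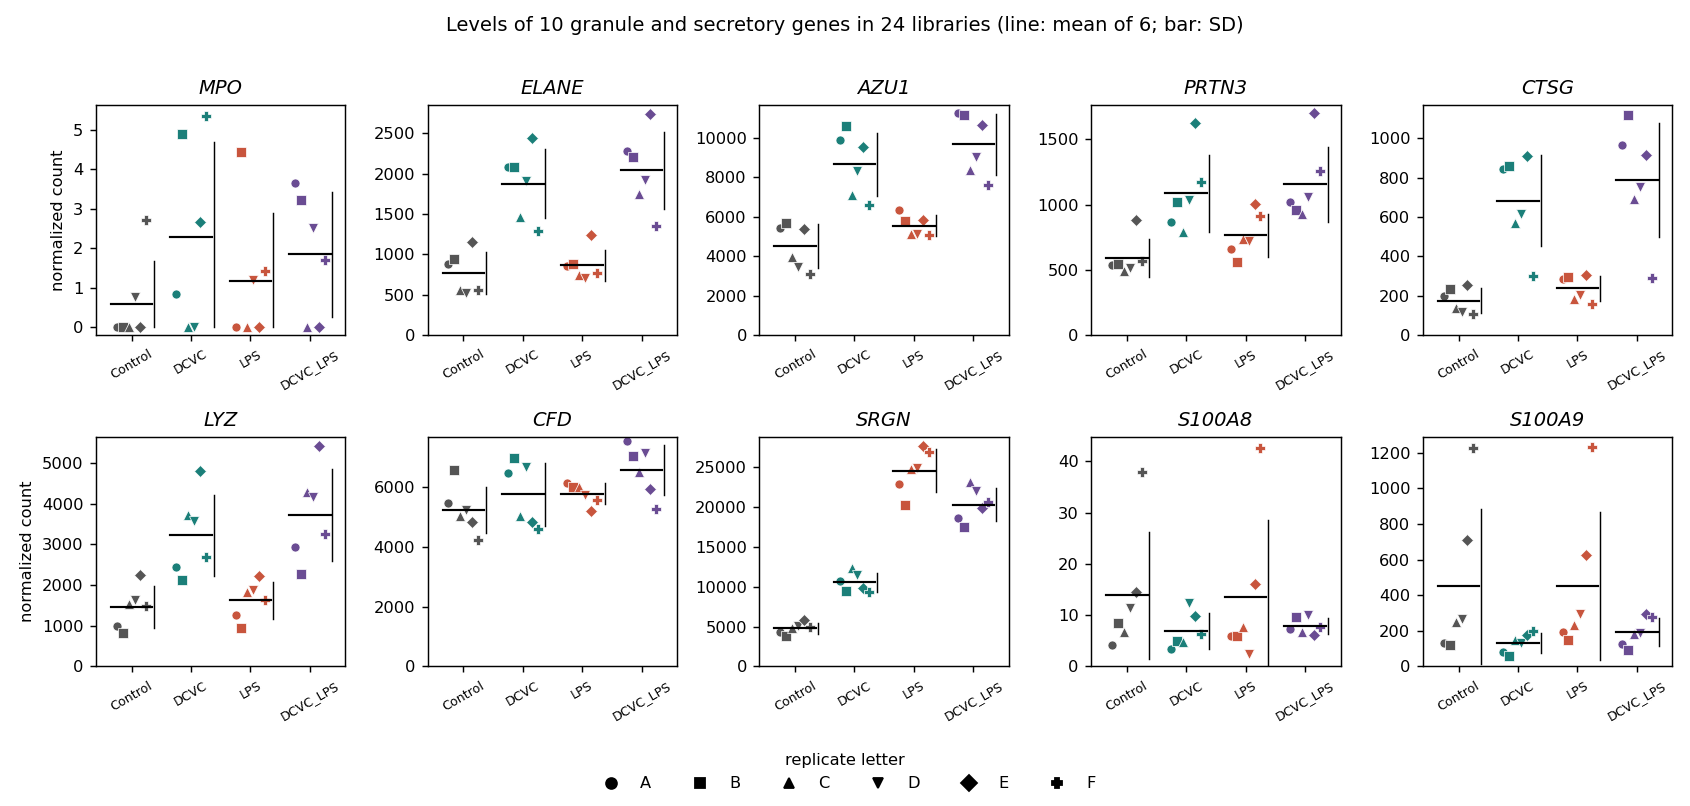
Normalized counts (vertical axis, linear, one scale per gene) of the 10 genes in the 24 libraries, by group and replicate letter; the line is the mean of 6 and the bar 1 SD. ELANE, AZU1 and CTSG lie higher in every DCVC library than in every Control library, SRGN is highest in LPS, and S100A9 is high in letters E and F of Control and LPS.

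The comparison of DCVC with Control asked what the conjugate alone did to these transcripts. All 4 granule serine protease family genes outside the complement system, ELANE, AZU1, PRTN3 and CTSG, rose, as did LYZ and SRGN. CFD did not pass the test and S100A9 fell. Of the 9 genes that reached a mean of 10 and were tested with limma on log2(value + 1), 6 rose and 1 fell at a Benjamini-Hochberg adjusted p under 0.05. Among all 13900 tested genes, 27.5% rose and 32.2% fell. The median log2 change of the 9 genes was 0.96, beside -0.03 for all tested genes. MPO, with a mean of 1.47, was not tested. At equal totals CFD was the seventh rise and S100A9 no longer passed the test, for 7 rises and 0 falls, beside 46.1% and 20.1% of all tested genes. With equal totals and the letter as a block, S100A9 passed as a fall again (adjusted p = 9.58e-05). In bulk RNA, a change in the number of cells that express a gene and a change in RNA per cell cannot be told apart. Separate ranges of groups, and changes alike in every letter, are described below for the members only. The share of all tested genes with such a pattern is not given here, so it does not set the members apart.

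CTSG had the largest rise. It ran from 106 to 253 normalized counts (median 169) in Control, from 302 to 913 (median 728) in DCVC, from 158 to 306 (median 244) in LPS and from 288 to 1118 (median 833) in DCVC_LPS. Every DCVC library lay above every Control library. The log2 change was 1.95 ± 0.30 (SE; limma adjusted p = 6.02e-06), and the ratio of the group means was 3.90. Letter F was the lowest in all 4 groups, so the 288 of DCVC_LPS F fell within the range of LPS while its own LPS partner stood at 158.

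ELANE ran from 524 to 1149.6 normalized counts (median 722) in Control, from 1284 to 2444 (median 1994) in DCVC, from 711 to 1236 (median 817) in LPS and from 1352 to 2738 (median 2066) in DCVC_LPS. The groups with and without DCVC did not overlap, either without or with LPS. With DCVC alone it rose by 1.32 ± 0.20 on the log2 scale (limma adjusted p = 4.41e-06), a ratio of means of 2.44.

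AZU1, the most abundant of the family, ran from 3107 to 5699 normalized counts (median 4674) in Control, from 6587 to 10597 (median 8929) in DCVC, from 5083 to 6354 (median 5470.0) in LPS and from 7599.8 to 11248 (median 9832) in DCVC_LPS. Again no library with DCVC reached down to its counterpart group. The log2 change with DCVC alone was 0.96 ± 0.14 (limma adjusted p = 4.31e-06).

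PRTN3 ran from 489.6 to 884 normalized counts (median 541) in Control, from 790.4 to 1629 (median 1029) in DCVC, from 559 to 1001 (median 726) in LPS and from 931 to 1699 (median 1039) in DCVC_LPS. On the deposited scale its groups overlapped through letter E, which was the highest library in all 4 groups. It was higher with DCVC in 6 of 6 letters, and its log2 change of 0.87 ± 0.18 (limma adjusted p = 0.000161) was the smallest of the 4.

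LYZ ran from 826 to 2256 normalized counts (median 1514) in Control, from 2118 to 4791 (median 3132) in DCVC, from 952 to 2222 (median 1730.1) in LPS and from 2273 to 5413 (median 3704) in DCVC_LPS. Letter E was the highest and letter B the lowest in all 4 groups. With DCVC alone the log2 change was 1.17 ± 0.25 (limma adjusted p = 0.000256), with a higher value in 6 of 6 letters.

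MPO was close to the detection limit. The recovered reads summed over 6 libraries were 4 in Control (95% exact Poisson interval 1.09 to 10.24), 15 in DCVC (8.4 to 24.74), 5 in LPS (1.62 to 11.67) and 12 in DCVC_LPS (6.2 to 20.96). The intervals cover counting error only. MPO was below the limit for testing. With no filter on low values its log2 change was 0.88 with DCVC (limma adjusted p = 0.226) and 0.45 in DCVC_LPS minus LPS (limma adjusted p = 0.541), and neither passed.

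CFD ran from 4248 to 6586 normalized counts (median 5128) in Control, from 4607 to 6963 (median 5741) in DCVC, from 5204 to 6123 (median 5875) in LPS and from 5273 to 7528 (median 6764) in DCVC_LPS. On the deposited scale the ranges overlap in every pair of groups. At equal totals all 6 LPS libraries lay below every Control library. All 6 DCVC_LPS libraries lay above every LPS library on that scale. Its log2 change with DCVC was 0.13 ± 0.11 on the deposited scale (limma adjusted p = 0.308) and 0.38 at equal totals, where it passed the test. In DCVC_LPS minus LPS it was 0.18 (limma adjusted p = 0.147) on the deposited scale and 0.61 at equal totals, where it passed (adjusted p = 1.16e-05).

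**Figure D2:**
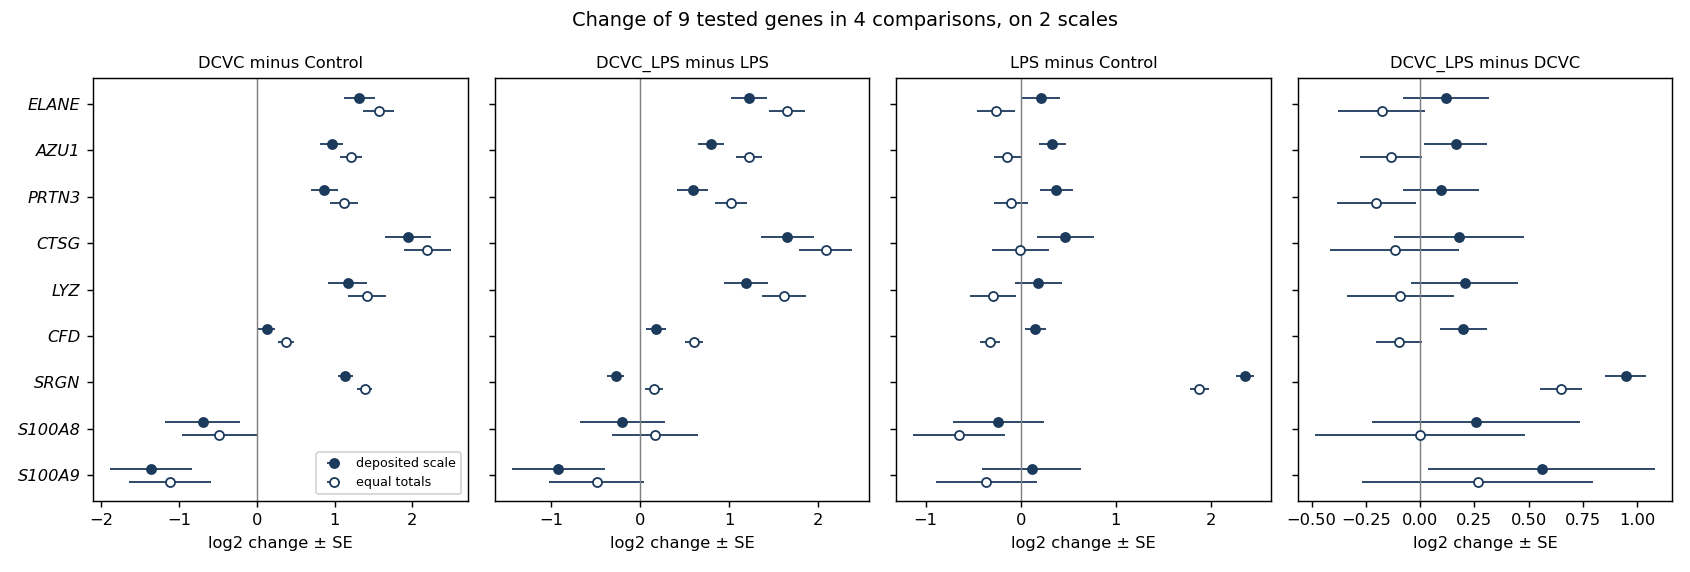
Log2 change with its SE (horizontal axis) of the 9 tested genes in 4 comparisons, on the deposited scale (filled) and at equal totals (open). The rises of ELANE, AZU1, PRTN3, CTSG and LYZ with DCVC stand on both scales in both DCVC comparisons, whereas the LPS changes of these genes lie near 0 and change sign between scales.

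The comparison of DCVC_LPS with LPS asked the same question in cells that also received LPS. ELANE, AZU1, PRTN3, CTSG and LYZ rose here too and SRGN fell, so that of the 9 tested genes 5 rose and 1 fell, beside 33.3% and 39.4% of all tested genes. The median log2 change of the 9 was 0.59, beside -0.07 for all genes. ELANE rose by 1.22 ± 0.20 on the log2 scale (limma adjusted p = 6.48e-06). CTSG rose by 1.65 ± 0.30 (limma adjusted p = 2.79e-05) and LYZ by 1.19 ± 0.25 (limma adjusted p = 0.000137). The changes of AZU1 (0.79 ± 0.14, limma adjusted p = 3.09e-05) and PRTN3 (0.59 ± 0.18, limma adjusted p = 0.0043) were smaller. All 5 were higher with DCVC in 6 of 6 letters. With the replicate letter as a block, CFD (0.18 on the log2 scale, adjusted p = 0.0141) and S100A9 (-0.92, adjusted p = 0.000547) also passed, which made 6 rises and 2 falls. At equal totals the count was 6 rises, CFD being the sixth, and 0 falls, since SRGN no longer passed, beside 54.5% and 21.95% of all tested genes. With equal totals and the block it was 7 rises and 1 fall, where SRGN was called as a rise (0.16, adjusted p = 0.035) and S100A9 as a fall (-0.49, adjusted p = 0.0427). In letters E and F alone, with 2 libraries a group, CTSG, ELANE and PRTN3 no longer passed here, nor CTSG and ELANE in DCVC minus Control.

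The comparison of LPS with Control gave little change in the granule proteases, in contrast to SRGN. Of the 9 tested genes 2 rose, SRGN and AZU1, and 0 fell, beside 37.8% and 40.6% of all tested genes. The log2 changes of ELANE (0.22, limma adjusted p = 0.327), PRTN3 (0.38, limma adjusted p = 0.0537), CTSG (0.47, limma adjusted p = 0.155) and LYZ (0.19, limma adjusted p = 0.497) did not pass the test. AZU1 rose by 0.33 ± 0.14 (limma adjusted p = 0.0386), a call that was lost without LPS A, LPS B, LPS E, Control C, Control D or Control F, with adjusted p-values from 0.0136 to 0.126 over all libraries and letters left out. PRTN3 in turn passed without LPS A, LPS B, Control E, DCVC C, DCVC E or DCVC_LPS E. With the letter as a block, ELANE (adjusted p = 0.0288), PRTN3 (8.11e-05), CTSG (0.000737), LYZ (0.00444) and CFD (0.0289) passed as well, for 7 rises. These small rises depend on the scale, since at equal totals the log2 changes of ELANE (-0.26), AZU1 (-0.14), PRTN3 (-0.10), LYZ (-0.29) and CFD (-0.32) were below 0 and CFD passed as a fall (adjusted p = 0.00645), which left 1 rise, SRGN, and 1 fall, beside 22.4% and 59.5% of all tested genes. With equal totals and the block there were 1 rise and 4 falls, and ELANE (adjusted p = 0.0127), AZU1 (0.0498), LYZ (4.77e-05) and CFD (9.06e-05) were called as falls. For these 4 genes the direction called under the block is thus opposite on the 2 scales.

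SRGN was the gene of the set with the clearest response to LPS. It ran from 3817 to 5787 normalized counts (median 4891) in Control, from 9330.1 to 12321 (median 10289) in DCVC, from 20224 to 27612 (median 24849.5) in LPS and from 17428 to 23067 (median 20229.7) in DCVC_LPS. On the deposited scale Control, DCVC and the LPS-treated groups occupied separate ranges, and the LPS and DCVC_LPS groups overlapped. LPS raised SRGN by 2.36 ± 0.10 on the log2 scale (limma adjusted p = 5.42e-17), a ratio of means of 5.12. DCVC alone raised it by 1.14 ± 0.10 (limma adjusted p = 4.93e-10), a ratio of 2.19.

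The SRGN response to LPS was smaller after DCVC on both scales, whereas the direction of DCVC_LPS minus LPS depended on the scale. The DCVC_LPS value was below LPS for SRGN in 6 of 6 letters, by a log2 change of -0.28 ± 0.10 (limma adjusted p = 0.0131), while at equal totals this change was 0.16 (adjusted p = 0.147). With the letter as a block the fall passed on the deposited scale (adjusted p = 0.000727), and at equal totals the change was called as a rise (adjusted p = 0.035). LPS still raised SRGN in cells that had received DCVC, by 0.95 ± 0.10 (limma adjusted p = 6.08e-09). It was the only rise among the 9 tested genes in DCVC_LPS minus DCVC, where 0 fell, beside 29.9% of all tested genes that rose and 32.2% that fell. The other 8 had adjusted p-values of at least 0.116 there, and CFD passed without DCVC B or without DCVC_LPS F. With the letter as a block AZU1 (adjusted p = 0.0341), LYZ (0.00275), CFD (0.00773) and S100A9 (0.0244) also passed, for 5 rises. With equal totals and the block these 4 did not pass and PRTN3 was called as a fall (-0.20, adjusted p = 0.0169). The interaction, the LPS change with DCVC minus that without it, was -1.41 ± 0.14 for SRGN (limma adjusted p = 1.38e-08) and -1.23 at equal totals (adjusted p = 1.23e-07). Of the 9 tested genes 0 had a higher and 1 a lower interaction, beside 22.0% and 23.7% of all genes. With the letter as a block PRTN3 was a second lower one (-0.28). With equal totals and the block PRTN3 did not pass (-0.10, adjusted p = 0.411), and LYZ (0.20, adjusted p = 0.0328) and CFD (0.23, adjusted p = 0.0388) were higher. The LPS changes with and without DCVC share no libraries, whereas the comparisons of DCVC with Control and of LPS with Control share the Control libraries.

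S100A9 went the other way from the proteases with DCVC. It ran from 122 to 1223 normalized counts (median 258) in Control, from 58.6 to 196 (median 138) in DCVC, from 149 to 1229 (median 262.5) in LPS and from 92.5 to 294 (median 185) in DCVC_LPS. In Control and LPS the libraries of letters E and F stood far above the other 4. The groups with and without DCVC overlapped through low letters. Control A and B (131 and 122) lay below DCVC E and F (178 and 196). LPS A and B (192 and 149) lay below DCVC_LPS E and F (294 and 280). On the deposited scale S100A9 was lower with DCVC in 6 of 6 letters, both without and with LPS. At equal totals 1 letter, C, was higher in DCVC_LPS (188) than in LPS (173). The log2 change with DCVC alone was -1.36 ± 0.52 (limma adjusted p = 0.0283, and 9.66e-06 with the letter as a block). Without the block, the call was lost at equal totals (-1.11, adjusted p = 0.0684) and without Control E, Control F, DCVC A or DCVC B, or without the whole letter C, D or E. Over all libraries and letters left out the adjusted p ran from 0.0106 to 0.0933. In DCVC_LPS minus LPS the log2 change was -0.92 (limma adjusted p = 0.118, and 0.000547 with the letter as a block). This fall was called in 7 of 43 alternatives. They were the block on both scales, edgeR, DESeq2 and each letter pair alone.

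S100A8, its partner in calprotectin, was scarce. It ran from 4.20 to 38.01 normalized counts (median 9.98) in Control, from 3.41 to 12.48 (median 5.56) in DCVC, from 2.39 to 42.7 (median 6.85) in LPS and from 6.13 to 10.0 (median 7.49) in DCVC_LPS. Its mean over all libraries, 10.6, lies just inside the limit for testing. No comparison of S100A8 over all 24 libraries passed, with adjusted p-values of 0.218 in DCVC minus Control and 0.659 in LPS minus Control (limma). In letters E and F alone, with 2 libraries a group, it was lower in DCVC_LPS than in LPS by a log2 change of -1.79 that passed (limma adjusted p = 0.0274), against -0.20 over all letters (limma adjusted p = 0.719). Per kilobase, S100A8 in Control was at 13.8 ± 12.3 against 780 ± 754 for S100A9, although both products make up 1 complex.

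The replicate letters carried a pattern of their own. For S100A9 the letter averages spanned 2.42 on the log2 scale, more than the 1.48 spanned by the group means, with F the highest and B the lowest. For S100A8 the letters spanned 1.58 against 0.69 for the groups. CTSG, LYZ and ELANE spanned 1.37, 1.27 and 0.91 over letters, while SRGN spanned 0.35 over letters and 2.36 over groups. ELANE, PRTN3 and LYZ were highest in letter E in all 4 groups, and AZU1 and CTSG lowest in letter F in all 4. The labels do not say what the letters mark. The summed level of 7 proliferation markers moved with them as well. In Control it was 36.6 and 32.5 CPM in A and B, 49.4 and 54.8 in C and D, 94.9 in E and 183.9 in F. In LPS it reached 85.7 in F. In DCVC it was 82.0 in E and 77.4 in F, above Control C and D. S100A9 was lower there, at 178 and 196 normalized counts in DCVC E and F against 252 and 264 in Control C and D. The part of the proliferation markers in the S100A9 values was not tested.

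**Figure D3:**
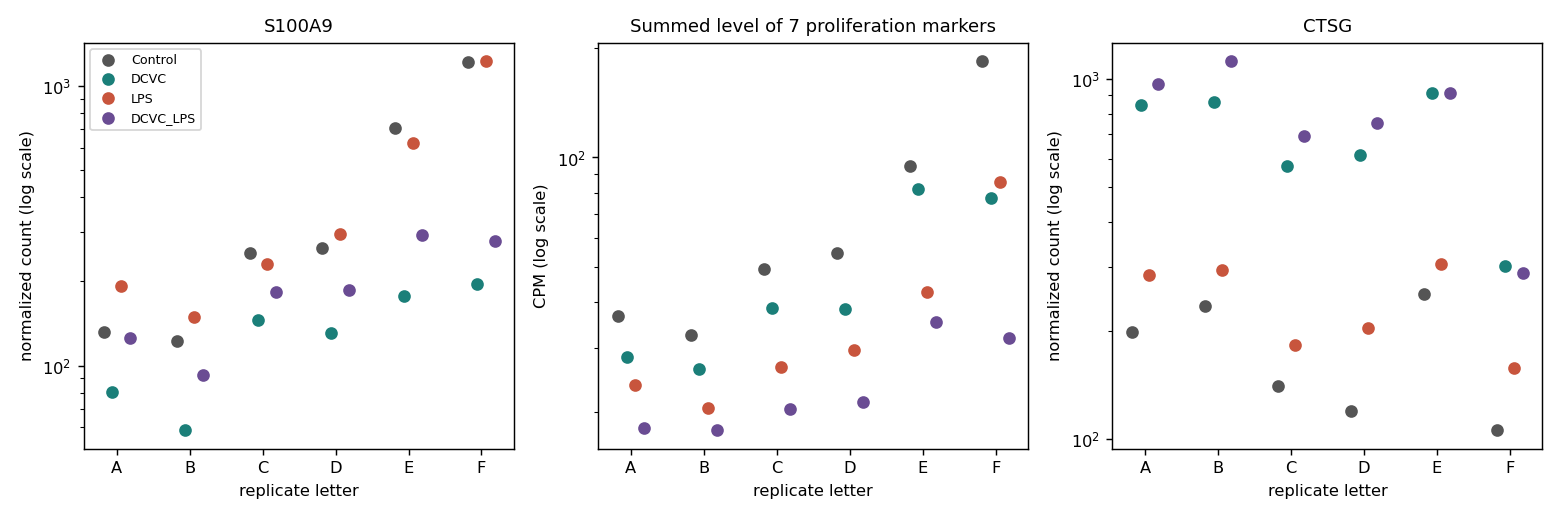
Levels of S100A9 and CTSG (normalized counts) and the summed level of 7 proliferation markers (CPM), on log axes, by replicate letter; each point is 1 library, coloured by group. S100A9 and the markers are high in letters E and F of Control (707 and 1223 normalized counts of S100A9), and CTSG is lowest in letter F in every group.

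Ratios of 2 genes within a library do not depend on the scale. The ratio of ELANE to PRTN3 had a mean log2 of 0.35 ± 0.34 (SD, n = 6) in Control and 0.80 ± 0.39 in DCVC (exact two-sided permutation p = 0.0671, adjusted 0.302). It was 0.19 ± 0.33 in LPS and 0.82 ± 0.40 in DCVC_LPS (exact permutation p = 0.0195, adjusted 0.175). For AZU1 to PRTN3 the differences ran from -0.04 to 0.20. The ratio of S100A8 to S100A9 was compared for LPS minus Control only, at -0.35 (exact permutation p = 0.418, adjusted 0.752), since S100A8 had a mean under 10 in both DCVC groups. In these unpaired tests none of the 9 ratios compared passed after adjustment, of which 1 had an unadjusted p under 0.05, and the smallest p the design allows is 0.00216. Within letters, the ELANE to PRTN3 ratio was higher with DCVC in 6 of 6 letters, both without and with LPS, and lower in LPS than in Control in 6 of 6. The AZU1 to PRTN3 ratio was higher in DCVC_LPS than in LPS in 6 of 6. With the letters as pairs, each of these 4 differences had the smallest p that an exact two-sided sign-flip permutation test can give over 6 pairs, 0.0312 (adjusted 0.0703), so that none passed after adjustment over the 9. That test takes the 6 letters as independent of each other, which was not tested. Without DCVC_LPS F, the unpaired ELANE to PRTN3 difference of DCVC_LPS minus LPS rose from 0.63 to 0.78 and passed (adjusted p = 0.039).

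The neighbours on chromosome 19 were examined after the members' values had been seen. AZU1, PRTN3 and ELANE rose with DCVC, while CFD, 3395 bases beyond ELANE, did not pass. On the other side PLPPR3, whose start lies at -12.6 kb from that of AZU1, fell by 1.52 ± 0.37 on the log2 scale (limma adjusted p = 0.00113). PTBP1, a splicing regulator next to it, fell by 0.55 ± 0.06 with DCVC (limma adjusted p = 7.08e-08) and had a log2 change of 1.14 with LPS (limma adjusted p = 1.75e-14). MED16, a Mediator subunit beyond CFD, had a change of 0.12 with DCVC (limma adjusted p = 0.251). PALM and ARID3A did not pass with DCVC either. R3HDM4 was at -0.15 (limma adjusted p = 0.0114), but at 0.10 with equal totals. On the deposited scale, the rise with DCVC was thus called at 3 adjoining genes of the row and at none of the 6 other tested neighbours. Of all tested genes, 27.5% rose on that scale. At equal totals, where 46.1% of all tested genes rose, CFD was called as well (0.38). MED16 and ARID3A stood at 0.36 and 0.70 there, and their calls on that scale are not given here. The limit of the rise to 3 adjoining genes thus depends on the scale.

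**Figure D4:**
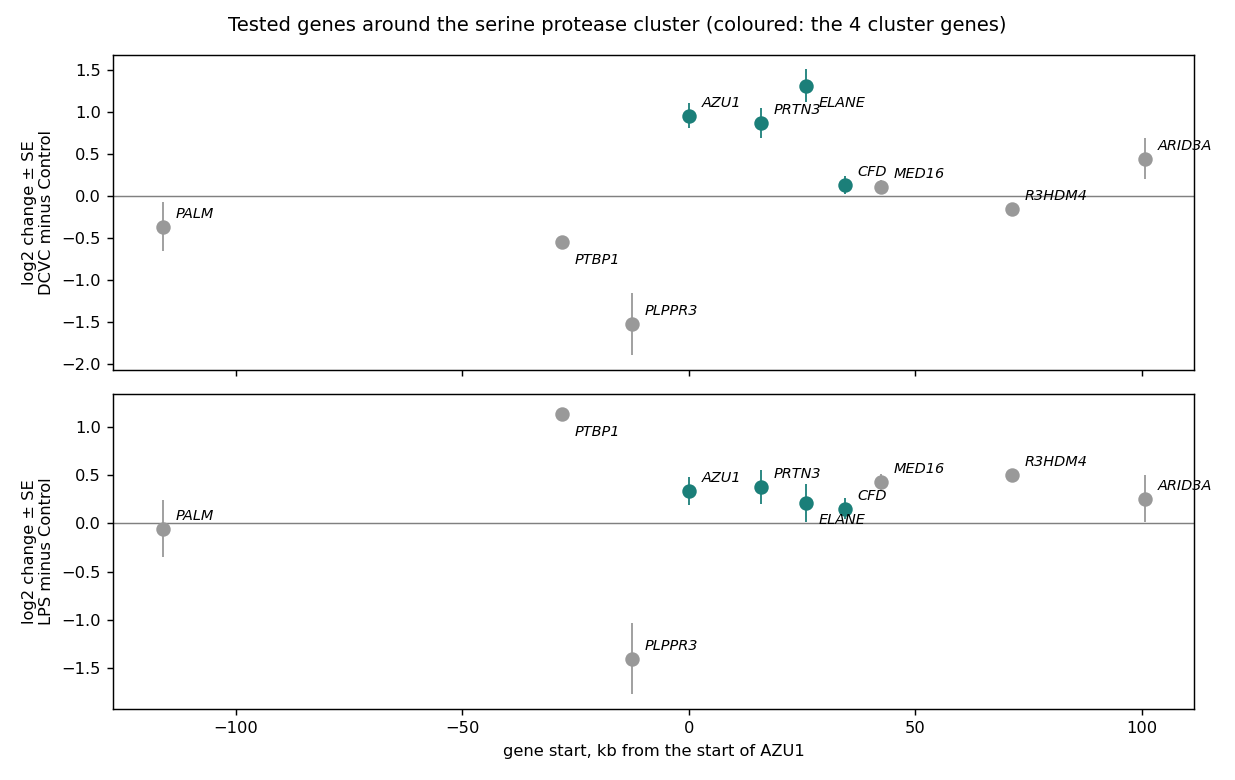
Log2 change with its SE (vertical axes) of the tested genes within about 100 kb of the row AZU1, PRTN3, ELANE and CFD, by distance of the gene's start from that of AZU1 in kb. With DCVC (upper panel) AZU1, PRTN3 and ELANE lie between 0.87 and 1.32, and the neighbours, CFD included, lie below 0.5. With LPS (lower panel) the 4 coloured genes lie between 0.15 and 0.38. Both panels show the deposited scale.

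The members resembled each other unequally over the 24 libraries. By the root mean square difference of log2 values after centring each gene, ELANE and AZU1 were closest (0.27), then AZU1 and PRTN3 (0.37) and ELANE and CTSG (0.40). S100A8 and S100A9 differed by 0.75. Among other genes with a mean of at least 50, CKM (0.31) and EMC3 (0.34) were among those most like ELANE, and LINC00265 (0.41) and CKM (0.50) among those most like CTSG. NEU3, ORMDL2 and HDAC6 were most like AZU1 (0.20 to 0.23). IGFBP2, SLPI and PIDD1 were most like PRTN3 (0.21 to 0.26), of which SLPI encodes a protease inhibitor of elastase and cathepsin G. LYZ was nearest to C19orf81, CDK18 and PNPLA8 (0.34 to 0.35), CFD to SEC13, COPE and FAM120AOS (0.11 to 0.12) and SRGN to RAB3IP, KBTBD8 and MIR22HG (0.23 to 0.29). S100A9 was nearest to RRM2 (0.42), MKI67 (0.49) and ADAMTSL4 (0.50), of which RRM2 and MKI67 are genes of dividing cells, and S100A8 to TPX2, ASF1B and ESCO2 (0.56 to 0.57). These are descriptions over libraries that share treatments, with no test.

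The other genes of the same granules and pathways were counted in 10 lists, by the same fit. The lists were not tested as lists, and their counts stand beside the shares of all tested genes given above for each comparison and scale. Of 14 tested genes for other azurophil granule proteins, 7 rose and 5 fell with DCVC (9 and 2 at equal totals), with a median log2 change of 0.29. The lysosomal sialidase NEU1 rose by 1.43 ± 0.06 (limma adjusted p = 3.8e-15). CTSC, the cathepsin that activates the granule serine proteases by trimming their ends, fell with DCVC by 1.30 ± 0.15 (limma adjusted p = 9.89e-08), from 19910 to 7963 normalized counts on average, while its protease substrates rose. It also fell with LPS, by 1.08 ± 0.15 (limma adjusted p = 5.62e-07), and was lowest in DCVC_LPS, at 4815. Of 7 specific and gelatinase granule genes 0 rose and 3 fell with DCVC (2 and 3 at equal totals). Among them the collagenase MMP8 fell by 3.82 ± 0.77 (limma adjusted p = 0.000151).

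Of 10 tested genes for inhibitors of serine proteases and of cathepsins, among them cystatins, which act on cysteine cathepsins, 8 rose and 0 fell with LPS, beside 37.8% and 40.6% of all tested genes. At equal totals 4 rose and 2 fell, beside 22.4% and 59.5%. The median log2 change of the list with LPS was 0.53, and SLPI (limma adjusted p = 0.0903) and CSTA (limma adjusted p = 0.738) did not pass. With DCVC 1 rose and 4 fell (2 and 3 at equal totals). SERPINB9, a granzyme B inhibitor, averaged 45.3 normalized counts in Control and 1.78 in DCVC, against 4532 with LPS and 46.0 with both. SERPINB1, an inhibitor of elastase, cathepsin G and proteinase 3, had means of 448, 399.5, 1420.0 and 293 in the same order, with an interaction of -2.06 ± 0.21 (limma adjusted p = 3.83e-08). SERPINA1, the alpha-1 antitrypsin gene, had a log2 change of 1.93 ± 0.28 with LPS (limma adjusted p = 8.29e-07) and of -0.36 in DCVC_LPS minus LPS (limma adjusted p = 0.245). SLPI, the secretory leukocyte protease inhibitor, was the inhibitor that rose with DCVC, by 0.68 ± 0.23 (limma adjusted p = 0.0135).

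The regulators of granule genes moved in both directions. Of 16 tested, 5 rose and 5 fell with DCVC, beside 27.5% and 32.2% of all tested genes. At equal totals 8 rose and 5 fell, beside 46.1% and 20.1%. With LPS 6 rose and 8 fell, beside 37.8% and 40.6% of all tested genes. At equal totals 6 rose and 9 fell with LPS, beside 22.4% and 59.5%. All tested genes thus also moved in both directions. CEBPA, the C/EBP factor of granulocyte and monocyte commitment, rose with DCVC by 0.59 ± 0.15 (limma adjusted p = 0.00151). It fell with LPS by 3.47 ± 0.15 (limma adjusted p = 1.57e-16), from 7070.0 to 651 normalized counts, and was at 1886 in DCVC_LPS. CEBPE, which acts in late granulocyte maturation, fell with LPS by 4.50 ± 0.25 (limma adjusted p = 2.72e-14) and was 2.50 ± 0.25 higher in DCVC_LPS than in LPS (limma adjusted p = 3.84e-09). SPI1, which encodes PU.1, had a log2 change of -0.11 with DCVC (limma adjusted p = 0.583). MYB, which drives granule protease genes in precursors, fell with DCVC by 2.00 ± 0.17 (limma adjusted p = 3.94e-10) and rose with LPS by 2.77 ± 0.17 (limma adjusted p = 1.02e-13). GFI1, a repressor acting in granulocyte precursors, fell with LPS by 1.48 ± 0.33 (limma adjusted p = 0.000249) and was at -0.05 with DCVC. Without the letter as a block, none of the 4 protease family genes was called as a fall with LPS on either scale. With equal totals and the block, ELANE and AZU1 were called as falls. The part of the regulators in the protease values was not tested.

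Of 8 other S100 genes tested, 1 rose and 6 fell with DCVC, also at equal totals, with a median log2 change of -1.39. Of all tested genes, 32.2% fell with DCVC and 20.1% at equal totals. S100A4 fell by 2.22 ± 0.43 (limma adjusted p = 9.48e-05) and S100A16 by 1.83 ± 0.25 (limma adjusted p = 1.01e-06), while S100A2 rose by 0.66 ± 0.21. Of 12 receptors and partners of calprotectin, 0 rose and 6 fell with DCVC (3 and 6 at equal totals). CD14, the LPS co-receptor, fell by 3.11 ± 0.28 (limma adjusted p = 1.08e-09) and the scavenger receptor CD36 by 1.85 ± 0.15. Of 10 genes of the alternative complement pathway around factor D, 0 rose and 6 fell with DCVC (0 and 5 at equal totals). C3AR1, the C3a receptor, fell by 1.88 ± 0.14 (limma adjusted p = 1.12e-10) and the regulator CD55 by 1.17 ± 0.26, in contrast to CFD itself.

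Of 20 genes of glycosaminoglycan synthesis, which builds serglycin's sugar chains, 3 rose and 9 fell with DCVC (7 and 7 at equal totals) and 5 rose and 11 fell with LPS (5 and 14 at equal totals). The chondroitin polymerizing factor CHPF rose with DCVC by 1.95 ± 0.21 (limma adjusted p = 2.11e-08) and the uronyl sulfotransferase UST fell by 3.83 ± 0.18 (limma adjusted p = 3.15e-14). Of 12 sorting and secretion genes, 1 rose and 10 fell with DCVC (1 and 7 at equal totals). The sorting receptor SORT1 fell by 2.39 ± 0.26 (limma adjusted p = 3.65e-08) and RAB27A, a GTPase of granule release, by 1.09 ± 0.12. STX11, a SNARE of granule exocytosis, rose with LPS by 4.61 ± 0.12 (limma adjusted p = 1.16e-20). Of 8 genes for haem peroxidases and haem synthesis, which supplies MPO with its cofactor, 0 rose and 7 fell with LPS (0 and 8 at equal totals), beside 37.8% and 40.6% of all tested genes. In DCVC_LPS minus LPS 6 rose and 0 fell on both scales, beside 33.3% and 39.4% on the deposited scale and 54.5% and 21.95% at equal totals. ALAD, an early enzyme of that synthesis, fell with LPS by 2.81 ± 0.09 (limma adjusted p = 6.84e-19).

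**Figure D5:**
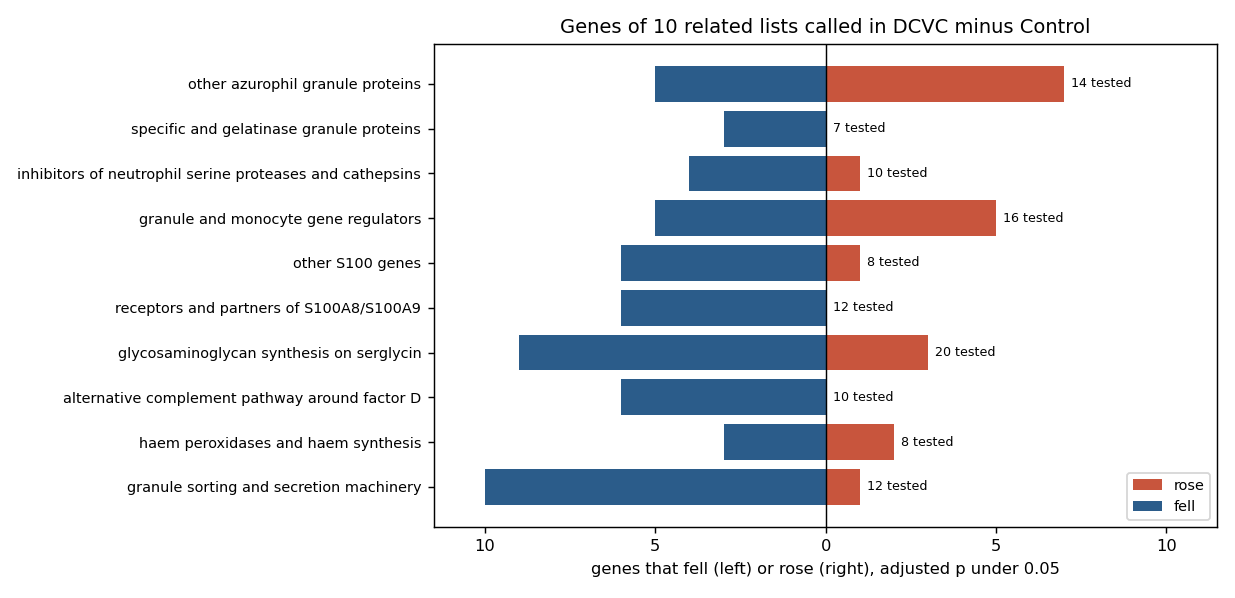
Number of genes that rose (right) or fell (left) in DCVC minus Control at an adjusted p under 0.05, for 10 lists of related genes, with the number tested, on the deposited scale. There other azurophil granule proteins are the only list with more rises (7) than falls (5), which at equal totals also held for the regulators (8 and 5) and the haem genes (3 and 1), and sorting and secretion genes have the most falls (10 of 12). Of all tested genes, 27.5% rose and 32.2% fell on the deposited scale.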

How the data were processed

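The deposited values are a signal, namely read counts that the authors divided by 1 size factor for each library. This was read from the values, since in each library 100% of them were whole multiples of 1 read within a tolerance of 0.1 read. Recovered reads (18478618 to 30107819 per library) limit precision for MPO and S100A8. The submitters' processing notes list hg38, STAR, featureCounts 1.6.1, DESeq2 1.24.0 with R 3.6.0, MultiQC 0.9 and FastQC 0.11.5, without roles. Which strand setting and annotation were used is not given in the sources used here, so reads of overlapping genes cannot be told apart.

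Of 58381 entries, 19595 without a gene name (0.83 to 1.13% of reads) were left out and 51 doubled symbols were summed. Tests covered the 13900 genes whose mean reached 10, as log2(value + 1), which understates changes of low genes, with limma 3.58.1 (R 4.3.3, empirical Bayes with trend). All 24 libraries entered 1 fit with 20 residual degrees of freedom. The script was tested on simulated data. The members, lists and tests were chosen with earlier results of these data known. Alternatives included other pseudocounts and filters, equal totals, a block for the letter, left-out libraries, letter pairs, edgeR 4.0.16 and DESeq2 1.42.0 on recovered reads. Equal totals combined with the block were added after the data were seen. Scaling to equal totals changed the split of all calls from 3820 higher and 4478 lower to 6412 and 2790 in DCVC minus Control, from 4633 and 5478 to 7578 and 3051 in DCVC_LPS minus LPS, from 5253 and 5639 to 3118 and 8275 in LPS minus Control, from 4160 and 4475 to 2263 and 7322 in DCVC_LPS minus DCVC, and from 3053 and 3297 to 4600 and 2232 in the interaction.

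The replicate letters come from the sample titles. Libraries of the same letter deviated together from their group means: 36 of 36 correlations were above 0.1 (0.13 to 0.54), so the letters were taken to pair the samples. The main fit does not use this pairing, since it holds a mean per group only. Its SEs and adjusted p-values are those given unless a block is named, and the fit with the letter as a block is an alternative. The labels do not say that letters are separate cultures, so the p-values measure only how far these samples spread, and that spread may be technical. Named genes are the 10 members, up to 2 rises and 2 falls per list and comparison with the largest log2 change (adjusted p under 0.05, mean of at least 50), 9 genes always named (CTSC, SERPINB1, SERPINA1, SLPI, CEBPA, CEBPE, SPI1, MYB, GFI1), and the 3 most similar genes per tested member. Some genes that this rule takes are not reported here. Of 12 planned ratio tests, 9 had both genes above a mean of 10. Exon lengths are from GENCODE 29.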

Additional observations from a re-analysis of the deposited data

Results flagged for a closer look

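In a check of each group of 6 libraries for 1 value far from the rest, 6 of 40 groups stood out, of which chance gives about 1 in 20. MPO reached 2.71 normalized counts in Control F, against 0.76 for the next library, and 4.44 in LPS B, against 1.42, in both cases from 3 reads. ELANE was 1236 in LPS E, with the next library at 886. PRTN3 was 884 in Control E, with the next at 569. S100A8 was 38.01 in Control F, with the next at 14.6, and 42.7 in LPS F, with the next at 16.02. Letter F also held the highest S100A9 value in both of these groups, and letter E the highest ELANE and PRTN3 values in every group.

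The SRGN change with LPS differed between cells with and without DCVC, by an interaction of -1.41 on the log2 scale (limma adjusted p = 1.38e-08), and it kept its sign and its call in 42 of 42 alternatives.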

How the results depend on the processing

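The rises of ELANE, AZU1, PRTN3, CTSG, LYZ and SRGN in DCVC minus Control and those of the first 5 in DCVC_LPS minus LPS kept their direction under all alternatives run, and lost their call only in letters E and F alone (ELANE and CTSG in both comparisons, PRTN3 in the second). Counts of members called were less stable. With the replicate block they were 7 in LPS minus Control (against 2), 5 in DCVC_LPS minus DCVC (against 1) and 2 in the interaction (against 1), and with equal totals and the replicate block 5, 2 and 3. In letters C and D alone they were 6, 5 and 3, and in letters A and B 3 in DCVC_LPS minus DCVC. In LPS minus Control 1 was called with no filter on low values and 1 with DESeq2. Leaving out libraries or letters gave 1 to 3 there and 1 to 2 in DCVC_LPS minus DCVC. All genes called for the interaction numbered 2859 in letters E and F against 6350. The block changed no other member count by over 1.5 times.

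At equal totals, with or without the block, log2 changes changed sign by the construction of the scale. In LPS minus Control they became -0.26 (ELANE), -0.14 (AZU1), -0.10 (PRTN3), -0.004 (CTSG), -0.29 (LYZ), -0.32 (CFD) and -0.36 (S100A9). In DCVC_LPS minus DCVC they became -0.18 (ELANE), -0.13 (AZU1), -0.20 (PRTN3), -0.12 (CTSG), -0.092 (LYZ), -0.10 (CFD) and -0.001 (S100A8). In DCVC_LPS minus LPS they became 0.16 (SRGN) and 0.17 (S100A8), and in the interaction 0.084 (ELANE) and 0.01 (AZU1).

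Other changes of sign were in values that passed no test, and their cause was not tested. In letters A and B these were ELANE in LPS minus Control (-0.062), S100A8 in DCVC_LPS minus LPS (0.44) and, in the interaction, ELANE (0.17), AZU1 (0.01) and LYZ (-0.10). In letters C and D they were S100A8 in DCVC_LPS minus LPS (0.76) and LYZ in the interaction (-0.008). In letters E and F they were S100A8 (0.15) and S100A9 (-0.087) in LPS minus Control, CTSG (-0.033) and S100A8 (-0.17) in DCVC_LPS minus DCVC, and CFD (-0.004) and S100A8 (-0.31) in the interaction. With edgeR they were S100A9 in LPS minus Control (-0.001) and LYZ (-0.019) and CFD (-0.014) in the interaction. With libraries or letters left out, S100A8 ran from -0.66 to 0.10 and S100A9 from -0.26 to 0.51 in LPS minus Control, and S100A8 from -0.58 to 0.23 in DCVC_LPS minus LPS. PRTN3 ran from -0.023 to 0.22 and CTSG from -0.037 to 0.45 in DCVC_LPS minus DCVC. In the interaction ELANE ran from -0.23 to 0.015, LYZ from -0.13 to 0.17 and CFD from -0.023 to 0.11. The log2 ratio of AZU1 to PRTN3 ran from -0.14 to 0.05 in LPS minus Control, from -0.006 to 0.20 in DCVC minus Control and from -0.036 to 0.17 in DCVC_LPS minus DCVC. That of ELANE to PRTN3 ran from -0.11 to 0.17 in DCVC_LPS minus DCVC and from 0.55 to 0.78 in DCVC_LPS minus LPS. Depth limits MPO and S100A8, which have few reads.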
